A study of Mus musculus with 6 samples.

Results

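The mitochondrial chromosome carries 37 genes, and all 37 were found among the 54532 genes of the deposited table by their chromosome label, MT. They comprise 13 protein genes, 2 rRNA genes and 22 tRNA genes. Liver RNA had been sequenced from mice with a knockout of G3bp1 in hepatocytes (HKO, 3 libraries) and from floxed mice, the litter controls (Flox, 3 libraries). Mice of both genotypes had eaten high-fat food for 12 weeks, starting at 6 weeks of age. G3BP1 is an RNA-binding protein of stress granules, and the study asked how it affects steatohepatitis, the inflamed form of fatty liver, naming a transfer of the protein into mitochondria in its title. No source used here gives the Cre driver or the deleted exons. Liver cells other than hepatocytes keep the gene in this design, and in bulk tissue fewer cells of a type and less RNA per cell cannot be told apart. The labels name no animal for a library, so the spread that the p-values measure is that between these samples and may be technical.

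Each strand of the circular mitochondrial DNA is transcribed as 1 long RNA, which is then cut into single RNAs. The tRNAs lie between most of the other genes and are cut out of the long RNA, which frees the mRNAs and rRNAs on either side. All 13 proteins are subunits of the respiratory chain or of ATP synthase, and the rRNAs and tRNAs serve the making of these 13 proteins alone. In liver, as elsewhere, these RNAs are made and decay apart from nuclear RNAs, under proteins that the nucleus encodes.

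G3bp1, the deleted gene, stood at 4.66, 4.27 and 4.44 FPKM in HKO 1, HKO 2 and HKO 3, against 8.46, 8.46 and 9.10 FPKM in Flox 1, Flox 2 and Flox 3, so every library matched its label (log2 fold change -0.83, adjusted p = 0.11 in limma). FPKM are reads per length of gene, scaled by library. Between 15804115 and 17954066 reads per library lay on genes. All 10 hepatocyte markers examined were measured above the filter in these livers, and their summed level overlapped between the groups (42949 to 52407 FPKM in HKO and 49653 to 52137 in Flox). Markers of other cells were measured too. Of the 10 Kupffer cell and macrophage markers, all 10 had a higher mean log2 value in HKO, against 48.8% of all genes tested. Their summed level overlapped between the groups (182 to 267 FPKM in HKO and 120 to 204 in Flox). By the same count 3 of 10 hepatocyte, 6 of 8 endothelial, 5 of 9 stellate and 3 of 4 cholangiocyte markers tested were higher. So were 3 of 3 B and plasma cell, 2 of 2 T and NK cell, 0 of 2 neutrophil and 0 of 5 erythroid markers tested. The 6 erythroid markers summed to 136 to 270 FPKM in HKO, all below the 295 to 333 FPKM in Flox. The 6 B and plasma cell markers summed to 2.87 to 4.12 FPKM in HKO, all above the 1.98 to 2.84 FPKM in Flox, where the groups nearly touch. Of all single genes tested 7.21% lay wholly below and 6.06% wholly above in HKO. Below the filter lay 1 of these erythroid markers and 3 of the B and plasma cell markers. Sums of endothelial, stellate, cholangiocyte, T and NK cell, and neutrophil markers overlapped between the groups. The part of these cells in the mitochondrial values was not tested.

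The level of a mitochondrial gene that has a near-identical copy in the nuclear genome cannot be read without that copy. Compared by sequence, 7 of the 13 protein genes have an annotated nuclear copy, here a gene identical in 97% or more of its bases over 80% or more of the copy or of the gene. There are 8 such copies, and 7 of them lie side by side on chromosome 1, at chr1:24611535-24616197 on the minus strand (GRCm38), over 4663 bases. They match a stretch of 4653 bases of the mitochondrial chromosome, from the 3′ part of mt-Co1, at 6390, to the 5′ part of mt-Nd4, at 11042. The other copy, Gm13340 on chromosome 2, matches the whole of mt-Co1 at 97.6% identity. For mt-Co2, mt-Atp6, mt-Co3 and mt-Nd4l the chromosome 1 copies Gm28661, Gm10925, Gm28437 and Gm10222 are 100% identical over their whole length. mt-Nd3 and its copy Gm28438 differ at 1 base, T3C, counted from 1 at the first base of mt-Nd3. The starts of both are shown to make plain how little separates them, with that base in capitals (GENCODE M21 transcripts; MT:9459-9509 on the plus strand and chr1:24613069-24613119 on the minus strand, GRCm38).
mt-Nd3: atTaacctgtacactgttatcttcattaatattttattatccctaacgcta
Gm28438: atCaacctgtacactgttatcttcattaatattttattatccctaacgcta
Over the 345 bases aligned a read that misses this base carries the same letters from either gene, so the levels of such genes and of their copies are uncertain.

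Protein genes that lie wholly in the copied stretch were listed far below the others in all 6 libraries. The 6 genes inside it (mt-Co2, mt-Atp8, mt-Atp6, mt-Co3, mt-Nd3 and mt-Nd4l) had mean levels of 10.1 to 567 FPKM over the 6 libraries. The 7 others had 2347 to 12402 FPKM, with no overlap between the sets. This split was made after the values were seen and is a description. mt-Atp8, which sets the low end of 10.1 FPKM, has no annotated copy by the rule above (longest match 43 bases, in Gm10925). The 2 genes that reach only partly into the stretch, mt-Co1 and mt-Nd4, have copies of 31.3% and 63.6% of their length there and belong to the higher set. The copies were listed with reads of their own in every library. Gm28661 stood at 363, 228 and 259 FPKM in the HKO livers, against 401, 556 and 216 FPKM in the Flox livers. Its mitochondrial twin mt-Co2, subunit II of cytochrome c oxidase, stood at 549, 329 and 317 FPKM in the HKO livers, against 389, 1004 and 218 FPKM in the Flox livers. Of the reads of mt-Co2 and its copy together, 35.5% to 50.7% lay on the copy. That share was 32.0% to 47.7% for mt-Atp6, 25.1% to 43.9% for mt-Co3, 24.5% to 32.4% for mt-Nd3 and 11.04% to 42.3% for mt-Nd4l. With the reads of the copy added, mt-Co2 stood at 433 to 1558 FPKM and mt-Atp6 at 587 to 1308. mt-Co3 then stood at 278 to 799 FPKM, mt-Nd3 at 75.4 to 177 and mt-Nd4l at 132 to 881. These sums remained below the levels of the 7 other protein genes in single libraries, 1866 to 13787 FPKM. For mt-Co1 and mt-Nd4 the share of reads on copies was 0.713% to 2.15% and 1.32% to 2.07%. No source used here says how reads that match both places were counted, and the part of this step in these levels was not tested.

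**Figure D1:**
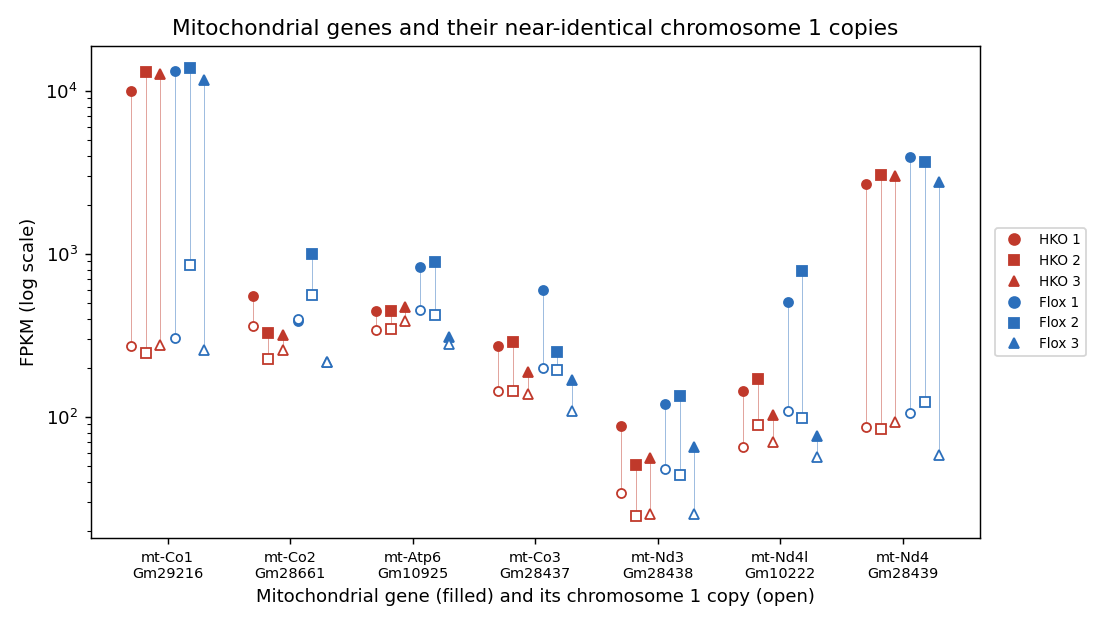
FPKM (log axis) of 7 mitochondrial protein genes (filled symbols) and of their chromosome 1 copies (open symbols) in each library, with HKO libraries in red left of Flox libraries in blue and a line joining gene and copy. The copies lie nearer to the gene in mt-Co2, mt-Atp6, mt-Co3, mt-Nd3 and mt-Nd4l, where 11.04% to 50.7% of the reads were on the copy, than in mt-Co1 and mt-Nd4, whose copies are partial.

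The 6 genes inside the stretch also varied more between libraries than the 7 others. Their highest library stood 2.63 to 10.3 times above their lowest, against 1.31 to 1.48 times. For 893 nuclear protein genes with a mean of at least 50 FPKM the median of this ratio was 1.48, and 13.4% of them were above 2. mt-Nd4l had the widest range of the protein genes, with 145, 170 and 103 FPKM in the HKO livers, against 510, 784 and 76.1 FPKM in the Flox livers. It encodes a small membrane subunit of complex I and is read from the same mRNA as mt-Nd4. mt-Nd4, with which it shares 7 bases, stood at 2677, 3052 and 3029 FPKM in the HKO livers, against 3942, 3692 and 2771 FPKM in the Flox livers. The ratio of mt-Nd4 to mt-Nd4l thus ran from 4.71 in Flox 2 to 36.4 in Flox 3, both extremes in control livers. With the reads of its copy added, the highest library of mt-Nd4l was still 6.67 times the lowest.

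No mitochondrial gene passed the test of HKO against Flox livers over all genes. That test was limma on log2(FPKM + 1), two-sided, with Benjamini-Hochberg adjustment over 11856 genes, and an adjusted p of 0.05 as its threshold. Of the 37 mitochondrial genes 31 passed the filter on low values, and 0 of the 31 passed the test, where 0.00843% of all genes tested did. Before adjustment 2 members, mt-Ty and mt-Tr, had p under 0.05, against 7.62% of all genes tested. With limma's voom on recovered reads 0 of the 31 passed as well, against 0.0253% of all genes. HKO libraries lay all above Flox libraries in 3 of the 31, against 6.06% of all genes tested, and all below in 0 of the 31, against 7.21%. Those 3 were the tRNA genes mt-Tl1, mt-Ty and mt-Tr. Fold changes are HKO minus Flox in log2(FPKM + 1), and those of genes with low FPKM come out too small on this scale. Its median over the 31 members was 0.00, and over all genes tested -0.01.

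**Figure D2:**
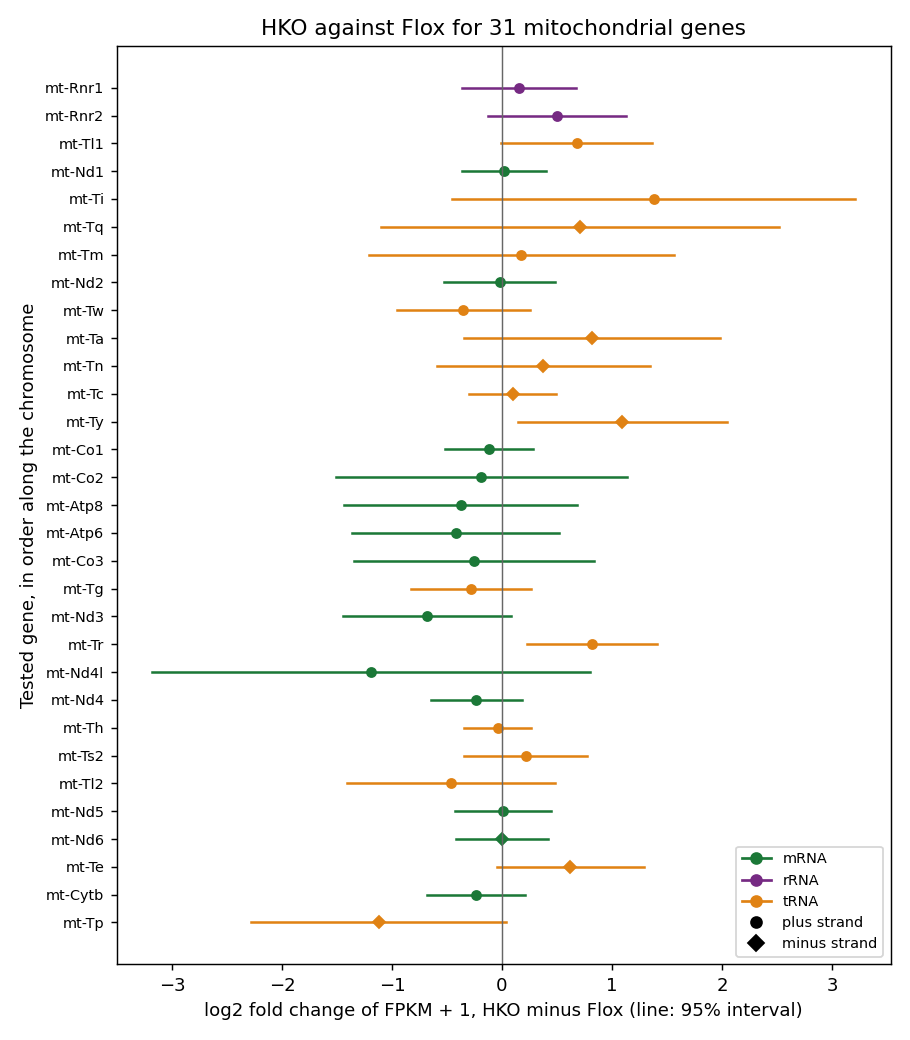
Log2 fold change of FPKM + 1, HKO minus Flox, with its 95% interval from limma, for the 31 tested mitochondrial genes from the start of the chromosome (top) to its end, coloured by class and with the strand shown by symbol. The intervals of 29 genes include 0, and those of mt-Ty and mt-Tr lie above it before adjustment.

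Mitochondrial genes held 4.58%, 5.60% and 5.58% of the assigned reads in HKO 1, HKO 2 and HKO 3, against 5.61%, 5.65% and 4.85% in Flox 1, Flox 2 and Flox 3. The lowest shares belonged to 1 library of each group, HKO 1 and Flox 3, and the groups overlapped. Their means were 5.25% ± 0.582 in HKO and 5.37% ± 0.452 in Flox (SD, n = 3 each; exact permutation test, two-sided p = 0.5, the smallest possible being 0.1). The sign of the difference of -0.115 percentage points turned without HKO 1 (0.221), without Flox 1 (0.00314) and without Flox 2 (0.0270). rRNA genes took 1.84%, 2.34% and 1.58% of the mitochondrial reads in the HKO livers, against 1.16%, 1.07% and 2.04% in the Flox livers. The means were 1.92% ± 0.386 in HKO and 1.42% ± 0.539 in Flox, and Flox 3 lay among the HKO livers (exact permutation test, two-sided p = 0.3, n = 3 each). Mitochondrial tRNA genes took 0.408%, 0.262% and 0.217% of these reads in the HKO livers, against 0.272%, 0.285% and 0.309% in the Flox livers. HKO livers thus held both the highest and the lowest tRNA share, with means of 0.296% ± 0.0999 in HKO and 0.289% ± 0.0186 in Flox (exact permutation test, two-sided p = 1, n = 3 each). The sign of this difference of 0.00697 points turned without HKO 1 (-0.0492) and without Flox 1 (-0.00134). The Wilson 95% intervals of single libraries were at most 0.0227, 0.0623 and 0.0285 percentage points wide for the mitochondrial, rRNA and tRNA shares. The differences of the group means in the first pair of shares, -0.115 and 0.494 points, were wider than that, and the difference of 0.00697 points in the tRNA share was not. The intervals of HKO 2 and Flox 1 overlapped for the mitochondrial share and for the tRNA share. Such intervals cover counting error only, since reads without molecular identifiers are not independent molecules.

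**Figure D3:**
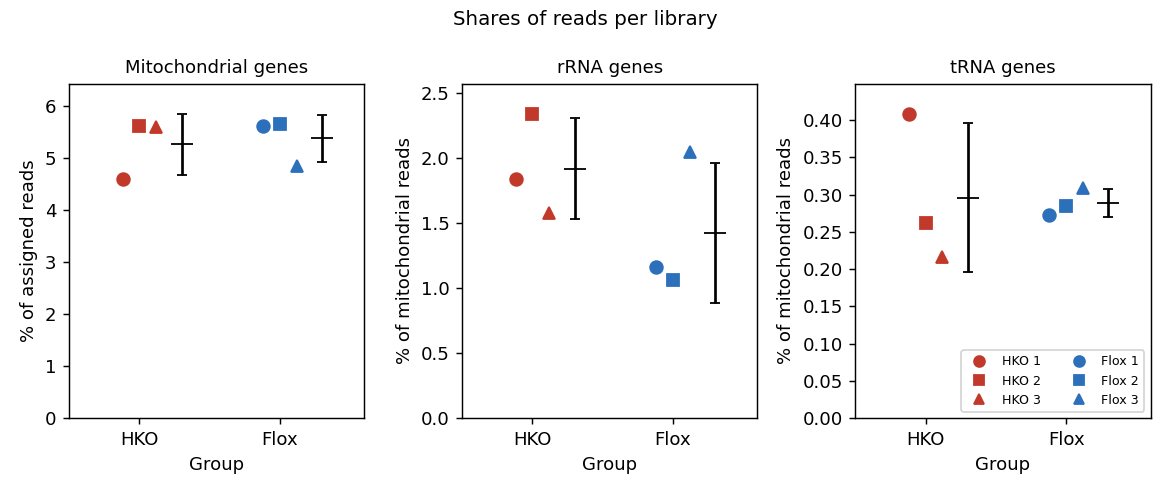
Share of assigned reads on all mitochondrial genes (left), and shares of the mitochondrial reads on rRNA (middle) and tRNA genes (right), as 1 symbol per library with the mean ± SD of each group beside it and HKO left of Flox. The groups overlap in all 3 shares, and HKO 1 and Flox 3 have the lowest mitochondrial shares, 4.58% and 4.85%.

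Of the 7 protein genes of complex I, the NADH dehydrogenase through which electrons enter the chain, 3 had a higher and 4 a lower mean log2 value in HKO. mt-Nd1 stood at 4728, 5902 and 6186 FPKM in the HKO livers, against 5526, 5875 and 5099 FPKM in the Flox livers. The groups overlapped in this membrane subunit, with a log2 fold change of 0.02 (95% interval -0.36 to 0.40, adjusted p = 0.98 in limma). mt-Nd2, another membrane subunit, stood at 4513, 6603 and 6350 FPKM in the HKO livers, against 6266, 6657 and 4731 FPKM in the Flox livers. HKO 1 and Flox 3 were again the lowest, and the log2 fold change was -0.02 (-0.53 to 0.49). mt-Nd5, which encodes the largest of these membrane subunits, stood at 1866, 2575 and 2644 FPKM in the HKO livers, against 2188, 2658 and 2154 FPKM in the Flox livers. mt-Nd6 is the protein gene on the minus strand and shares 14 bases with the end of mt-Nd5 on the other strand. It stood at 1995, 2472 and 2571 FPKM in the HKO livers, against 2377, 2702 and 1966 FPKM in the Flox livers. Since the library kit named in the labels does not mark strand, reads of mt-Nd6 and RNA antisense to it could not be told apart. The log2 fold changes of mt-Nd5 and mt-Nd6 were 0.01 (-0.43 to 0.44) and 0.00 (-0.42 to 0.42). mt-Nd4, whose values stand above, had -0.23 (-0.65 to 0.18), and -0.39 without Flox 3 and -0.13 without Flox 1.

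mt-Nd3 had the second-lowest log2 fold change of the protein genes, after mt-Nd4l. It stood at 88.0, 50.96 and 55.6 FPKM in the HKO livers, against 120, 134 and 65.3 FPKM in the Flox livers. HKO 1 lay above Flox 3, so the groups overlapped, and the gene did not pass (log2 fold change -0.68, 95% interval -1.45 to 0.08, adjusted p = 0.667 in limma). Its copy Gm28438 stood at 34.0, 24.7 and 25.3 FPKM in the HKO livers, against 47.7, 43.9 and 25.5 FPKM in the Flox livers. In gene and copy alike, HKO 1 was the highest HKO library and Flox 3 the lowest Flox library. mt-Nd4l had a log2 fold change of -1.19 with an interval of -3.18 to 0.80 (adjusted p = 0.719 in limma). It was -2.20 without Flox 3 and -0.53 without Flox 2.

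mt-Cytb encodes cytochrome b, the mitochondrial subunit of complex III, and was the second most abundant member per length. It stood at 7539, 8943 and 8655 FPKM in the HKO livers, against 10907, 11149 and 7794 FPKM in the Flox livers. Flox 1 and Flox 2 were the highest libraries and Flox 3 lay among the HKO livers (log2 fold change -0.23, 95% interval -0.68 to 0.21, adjusted p = 0.741 in limma). The value was -0.40 without Flox 3 and -0.14 without Flox 2. Like mt-Co3 and mt-Nd4, the gene ends on a single T in place of a full stop codon, which the poly(A) tail completes in these mRNAs. Its last 21 bases are shown beside those of mt-Nd5, which ends on a full stop codon, with the final bases of each reading frame in capitals (MT:15268-15288 and MT:13545-13565 on the plus strand, GRCm38, GENCODE M21).
mt-Cytb: aaatactaaaattatatccaT
mt-Nd5: tactcaattaatctcgagTAA
In all 3 genes of a length that is no multiple of 3 the end is such a T, and the 10 other protein genes have a whole number of codons.

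mt-Co1 was the most abundant member in every library. It encodes the catalytic subunit of cytochrome c oxidase, complex IV, and held 35.2% to 38.2% of all mitochondrial reads. Its level was 10045, 13069 and 12670 FPKM in the HKO livers, against 13198, 13787 and 11644 FPKM in the Flox livers. HKO 1 and Flox 3 were the lowest once more (log2 fold change -0.12, 95% interval -0.52 to 0.28, adjusted p = 0.843 in limma). The partial copy of mt-Co1, Gm29216, stood at 272, 246 and 275 FPKM in the HKO livers, against 305, 859 and 258 FPKM in the Flox livers. Flox 2 was the highest library in this copy, in Gm28661 and in mt-Co2. mt-Co2 had a log2 fold change of -0.19 (-1.51 to 1.13), and 0.41 without Flox 2. mt-Co3, subunit III, stood at 272, 289 and 188 FPKM in the HKO livers, against 599, 249 and 169 FPKM in the Flox livers. Here Flox 1 was the library apart (log2 fold change -0.25, -1.35 to 0.84), and without it the value was 0.26.

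mt-Atp6 and mt-Atp8 encode subunits of the membrane part of ATP synthase, complex V, and are read from 1 mRNA. Their reading frames share 43 bases, shown in capitals with 15 bases on either side (MT:7912-7984 on the plus strand, GRCm38, GENCODE M21), so reads inside it belong to both genes.
mt-Atp8/mt-Atp6: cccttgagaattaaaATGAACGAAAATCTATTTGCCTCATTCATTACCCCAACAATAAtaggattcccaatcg
mt-Atp6 stood at 447, 448 and 475 FPKM in the HKO livers, against 835, 889 and 307 FPKM in the Flox livers. The 3 HKO libraries lay close together between Flox 3 and the other Flox libraries (log2 fold change -0.42, 95% interval -1.36 to 0.52, adjusted p = 0.766 in limma). The value was -0.91 without Flox 3 (adjusted p = 0.161, against up to 0.992 under the other settings tried), -0.15 without Flox 2 and -0.20 without Flox 1. mt-Atp8 stood at 11.6, 5.87 and 7.40 FPKM in the HKO livers, against 16.9, 13.9 and 4.96 FPKM in the Flox livers. With 17 to 53 reads per library it rests on few reads, and it was listed 38.5 to 76.3 times lower than mt-Atp6 although both lie on the same mRNA. Its log2 fold change was -0.37 (-1.43 to 0.68), and -0.86 without Flox 3 and -0.065 without Flox 1.

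Over the 13 protein genes the median log2 fold change was -0.23, with 3 genes higher and 10 lower. Of all genes tested 48.8% were higher and 51.2% lower. The 7 genes not wholly in the copied stretch had a median of -0.02, and the 6 genes inside it -0.40, all 6 lower. Those 6 lie on the same strand and were read in the same libraries, so they are not 6 separate observations. The count of lower genes was 8 of 13 when FPKM were rescaled to TPM (which sum to 1 fixed total in every library), a scaling that moved the median of all genes tested to 0.15. It was 9 of 13 when scaled by assigned reads. The median of the 13 was -0.40 without Flox 3, with all 13 lower, and -0.10 without Flox 1. The median over the 13 genes of log2 values, each centred on its mean over the 6 libraries, was -0.24, -0.02 and -0.07 in the HKO livers, against 0.27, 0.22 and -0.29 in the Flox livers. Flox 1 and Flox 2 were thus the highest libraries, Flox 3 was the lowest, and the HKO livers stood between them.

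**Figure D4:**
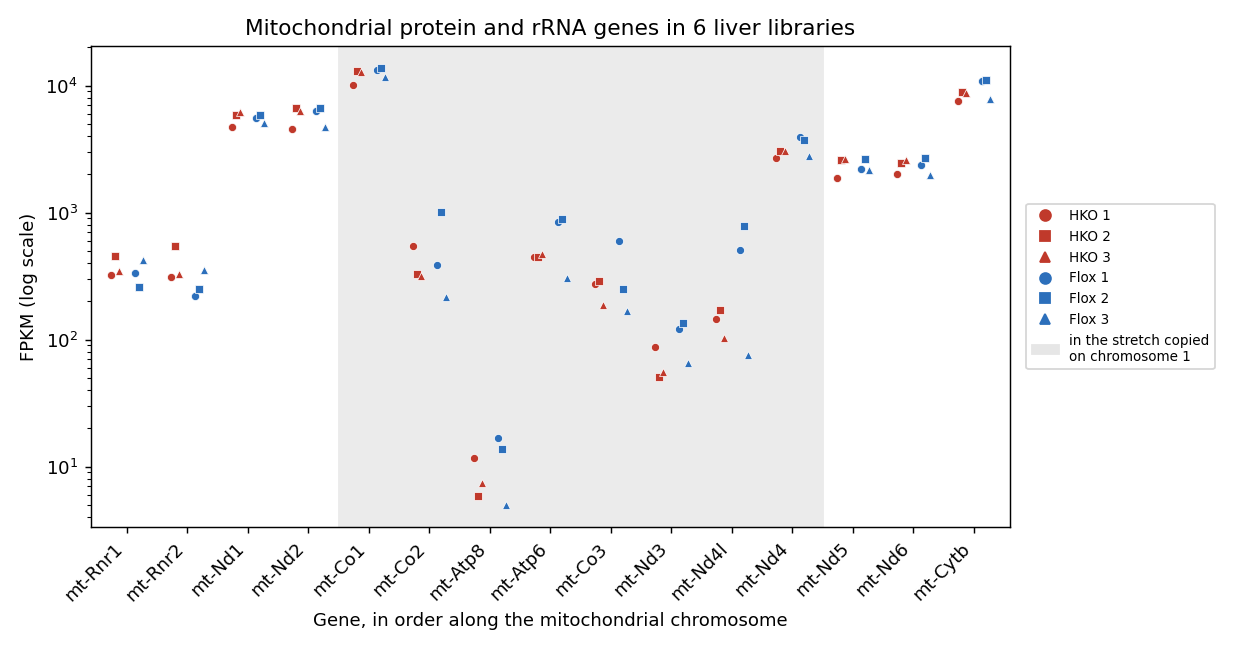
FPKM (log axis) of the 13 protein genes and 2 rRNA genes in order along the chromosome, 1 symbol per library, HKO in red left of Flox in blue, with genes that touch the stretch copied on chromosome 1 on grey. Genes wholly in the stretch lie at means of 10.1 to 567 FPKM and spread widely between libraries, and the 7 other protein genes lie at 2347 to 12402 FPKM.

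The rRNA genes stood below most mRNAs in these libraries. mt-Rnr1, the 12S rRNA of the small subunit of the mitochondrial ribosome, stood at 320, 455 and 349 FPKM in the HKO livers, against 335, 259 and 425 FPKM in the Flox livers. mt-Rnr2, the 16S rRNA of the large subunit, stood at 312, 544 and 328 FPKM in the HKO livers, against 222, 251 and 352 FPKM in the Flox livers. HKO 2 was the highest library for both, and Flox 3 lay above HKO 1 and HKO 3 in both. Neither gene passed, with log2 fold changes of 0.15 (95% interval -0.36 to 0.67, adjusted p = 0.843 in limma) and 0.50 (-0.12 to 1.13, adjusted p = 0.685). No source used here says whether rRNA was removed or poly(A) RNA selected, so these levels do not measure the rRNA of the tissue. mt-Nd1, the next protein gene after mt-Rnr2 with only a tRNA between them, stood 10.9 to 24.9 times above it.

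The tRNA genes were listed over a wide span, and the genes with the highest levels lay on the minus strand. The 5 most abundant, mt-Tp, mt-Te, mt-Tc, mt-Ty and mt-Tn, are all among the 8 tRNA genes of that strand, which averaged 0.817 to 1009 FPKM. The 14 tRNA genes of the plus strand averaged 0 to 59.8 FPKM. Bases differed between the strands too, with a median of 23.2% G and 13.6% C in the 9 minus-strand genes, mt-Nd6 among them, and of 13.5% G and 22.5% C in the 28 plus-strand genes. Without strand, reads of a tRNA and of RNA from the opposite strand could not be told apart, and neither could mature tRNAs and uncut RNA, so these values are reads over tRNA genes and not levels of mature tRNAs. No reads were listed in any library for mt-Tf and mt-Tv, the tRNA genes on either side of mt-Rnr1. A count of 0 allows up to 3 reads per library, or 2.35 to 2.97 FPKM at these lengths. mt-Ts1, mt-Td, mt-Tk and mt-Tt had 6, 1, 1 and 2 reads, each in a single HKO library (HKO 1 for the first pair and HKO 2 for mt-Tk and mt-Tt) and none in Flox. These 6 genes did not pass the filter of the test reported. In the fit with no filter mt-Ts1, mt-Tt, mt-Tk and mt-Td had log2 fold changes of 0.85, 0.49, 0.31 and 0.28 and did not pass (adjusted p = 0.777 for each in limma), on 1 to 6 reads a gene. mt-Ts1, mt-Td and mt-Tk lie in the stretch copied on chromosome 1, as do mt-Tg and mt-Tr. No annotated copy of a tRNA gene was found by the rule used, and the bases between annotated copies were not searched.

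mt-Tp, mt-Te and mt-Ty varied more between libraries (highest over lowest 3.65, 2.81 and 4.16) than the protein gene nearest to each (1.48, 1.37 and 1.37), and their sequences are shown with the anticodon in capitals (GENCODE M21, GRCm38, all on the minus strand, MT:15356-15422, MT:14071-14139 and MT:5260-5326).
mt-Tp: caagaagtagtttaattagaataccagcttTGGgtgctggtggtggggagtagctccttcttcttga
mt-Te: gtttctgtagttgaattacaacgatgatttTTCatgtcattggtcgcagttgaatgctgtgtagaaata
mt-Ty: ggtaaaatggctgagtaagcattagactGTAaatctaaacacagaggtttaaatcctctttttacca
mt-Tp, the proline tRNA at the end of the gene map, had 1637, 422 and 504 reads in the HKO livers, against 1319, 1372 and 1391 reads in the Flox livers. Its level was 1378, 377 and 406 FPKM in the HKO livers, against 1281, 1379 and 1235 FPKM in the Flox livers. HKO 2 and HKO 3 lay far below the other 4 libraries, and HKO 1 stood among the Flox livers. The log2 fold change was -1.12 (95% interval -2.28 to 0.04, adjusted p = 0.653 in limma). Without HKO 1 it was -1.73, and mt-Tp passed (adjusted p = 0.0354 in limma, against up to 0.989 under the other settings tried), as did 13 of the 11856 genes tested in that fit (0.11%). mt-Tt, which abuts mt-Tp on the other strand, had no more than 2 reads in any library. The ratio of mt-Tp to mt-Cytb, the nearest protein gene, was 0.183, 0.0422 and 0.0469 in the HKO livers, against 0.117, 0.124 and 0.158 in the Flox livers.

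mt-Ty, the tyrosine tRNA beside mt-Co1 on the opposite strand, had 110, 343 and 209 reads in the HKO livers, against 79, 85 and 83 reads in the Flox livers. Its level was 92.6, 307 and 168 FPKM in the HKO livers, against 76.7, 85.4 and 73.7 FPKM in the Flox livers. All HKO libraries lay above all Flox libraries, HKO 1 by little. The gene did not pass (log2 fold change 1.09, 95% interval 0.15 to 2.04, adjusted p = 0.648 in limma). Its neighbour mt-Tc, the cysteine tRNA on the same strand, 2 bases away, stood at 292, 296 and 226 FPKM in the HKO livers, against 213, 271 and 276 FPKM in the Flox livers. That gene overlapped between the groups (log2 fold change 0.10, -0.30 to 0.49). The ratio of mt-Ty to mt-Tc was 0.317, 1.04 and 0.746 in the HKO livers, against 0.360, 0.315 and 0.267 in the Flox livers, so HKO 1 lay within the Flox range.

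mt-Te, the glutamate tRNA that abuts mt-Nd6 on the minus strand, stood at 454, 788 and 649 FPKM in the HKO livers, against 495, 460 and 280 FPKM in the Flox livers. HKO 2 and HKO 3 were the highest and HKO 1 lay among the Flox livers (log2 fold change 0.62, 95% interval -0.05 to 1.29, adjusted p = 0.667 in limma). Its ratio to mt-Nd6 was 0.228, 0.319 and 0.252 in the HKO livers, against 0.208, 0.170 and 0.143 in the Flox livers, without overlap. This ratio was looked at after the values were seen, and no test was made of it. mt-Tn, the asparagine tRNA, stood at 154, 86.9 and 57.0 FPKM in the HKO livers, against 47.7, 74.0 and 98.0 FPKM in the Flox livers, with the groups overlapping.

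**Figure D5:**
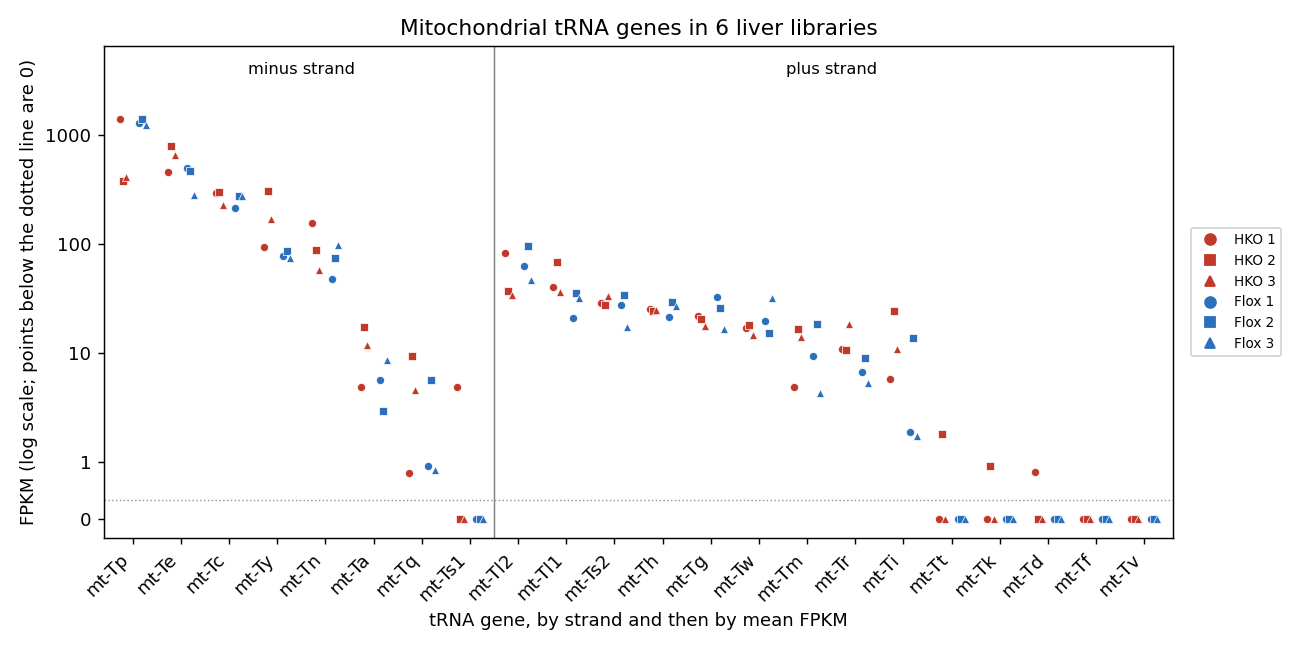
FPKM (log axis, with 0 drawn below the dotted line) of the 22 tRNA genes, minus strand left and plus strand right, each ordered by mean, 1 symbol per library with HKO in red left of Flox in blue. mt-Tp in HKO 2 and HKO 3, at 377 and 406 FPKM, lies below the other 4 libraries, and mt-Ty in the same 2 libraries, at 307 and 168 FPKM, lies above them.

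mt-Tl1 and mt-Tr were the other tRNA genes without overlap between the groups, both on the plus strand. mt-Tl1, the leucine tRNA between mt-Rnr2 and mt-Nd1, had 53, 86 and 50 reads in the HKO livers, against 24, 39 and 40 reads in the Flox livers. In FPKM that is 39.8, 68.7 and 36.0 in the HKO livers, against 20.8, 35.0 and 31.7 in the Flox livers, where HKO 3 and Flox 2 nearly touch. Its log2 fold change was 0.68 (95% interval -0.01 to 1.37, adjusted p = 0.651 in limma). mt-Tr, the arginine tRNA, had 13, 12 and 23 reads in the HKO livers, against 7, 9 and 6 reads in the Flox livers. These few reads gave 10.8, 10.6 and 18.2 FPKM in the HKO livers, against 6.70, 8.91 and 5.25 FPKM in the Flox livers (log2 fold change 0.82, 0.23 to 1.41, adjusted p = 0.648 in limma). The 9 remaining tested tRNA genes, mt-Tl2, mt-Ts2, mt-Th, mt-Tg, mt-Tw, mt-Tm, mt-Ti, mt-Ta and mt-Tq, averaged 3.68 to 59.8 FPKM and overlapped between the groups. Of these mt-Ti had the highest log2 fold change of the 31 tested members, on 2 to 28 reads per library (1.38, 95% interval -0.45 to 3.21, adjusted p = 0.685 in limma). Among the 16 tested tRNA genes 11 had a higher and 5 a lower mean log2 value in HKO, against 48.8% higher among all genes tested. Their median log2 fold change was 0.30. The median was 0.48 under TPM, with 12 of 16 higher. In FPKM with 1 library left out it ranged from 0.20 to 0.45, with 9 of 16 higher without Flox 3 and 12 without Flox 2. The median of the centred log2 values was -0.0044, 0.17 and 0.12 in the HKO livers, against -0.26, 0.13 and -0.31 in the Flox livers. Flox 2 thus lay among the HKO livers. These 16 genes were read in the same libraries and are not 16 separate observations.

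Nuclear genes that make, cut, modify and decay mitochondrial RNA, or translate it, did not pass the test either (0 called by limma in each of the lists of 9 to 22 genes). Counts of higher and lower genes below are those in FPKM, where 48.8% of all genes tested were higher and 51.2% lower. Under TPM the medians of these lists were 0.11 to 0.28, beside 0.15 for all genes tested, with most genes of every list higher. Before adjustment p was under 0.05 for 1 of 17 genes of DNA maintenance and transcription, 3 of 20 of RNA processing, 1 of 13 translation factors and 0 in the other lists, against 7.62% of all genes tested. Of 17 tested genes of mitochondrial DNA maintenance and transcription 6 had a higher and 11 a lower mean log2 value in HKO (median -0.06). Among these Mterf4, which with the methyltransferase gene Nsun4 serves assembly of the mitochondrial ribosome, stood at 2.10, 2.39 and 2.15 FPKM in the HKO livers, against 2.73, 3.24 and 2.64 FPKM in the Flox livers. All HKO libraries lay below all Flox libraries there (adjusted p = 0.648 in limma), as in 2 of the 17 genes, against 7.21% of all genes tested. The other was Tefm, the elongation factor of mitochondrial transcription (Tefm, Trmt5 and Qtrt1 are named after their values were seen). Of 20 tested genes of RNA processing and tRNA maturation 9 were higher and 11 lower (median -0.02). HKO lay below Flox throughout in 4 of these 20 genes (Hsd17b10, Trit1, Trmt5 and Qtrt1) and above in 1 (Alkbh1), against 7.21% and 6.06% of all genes tested. Hsd17b10 encodes a subunit of the RNase P that cuts the 5′ ends of mitochondrial tRNAs, besides being a dehydrogenase. It stood at 105, 75.0 and 106 FPKM in the HKO livers, against 163, 239 and 112 FPKM in the Flox livers, without overlap but with HKO 3 close to Flox 3 (log2 fold change -0.79, adjusted p = 0.648 in limma). Trit1, which modifies tRNAs at the base next to the anticodon, stood at 5.16, 4.34 and 4.01 FPKM in the HKO livers, against 5.46, 6.00 and 5.93 FPKM in the Flox livers. Alkbh1, a demethylase that acts on tRNAs, stood at 1.098, 0.921 and 0.697 FPKM in the HKO livers, against 0.475, 0.512 and 0.643 FPKM in the Flox livers. Neither of these tRNA modifiers passed (adjusted p = 0.648 for both in limma).

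In the remaining lists the medians lay between -0.04 and 0.10, beside -0.01 for all genes. Of 13 genes of RNA stability and decay 6 were higher and 7 lower (median -0.01), of 18 genes of rRNA modification and ribosome assembly 8 and 10 (-0.02), and of 13 translation factors 5 and 8 (-0.03). Pnpt1, the polynucleotide phosphorylase of mitochondria, stood at 5.61, 7.60 and 6.69 FPKM in the HKO livers, against 7.44, 6.90 and 10.8 FPKM in the Flox livers. The groups overlapped there, and also in Ngrn, which serves the assembly of the large ribosomal subunit, at 10.1, 8.39 and 6.51 FPKM in the HKO livers, against 10.7, 11.4 and 9.93 FPKM in the Flox livers. Taco1, an activator of the translation of mt-Co1, stood at 14.3, 17.1 and 16.8 FPKM in the HKO livers, against 11.8, 12.7 and 12.9 FPKM in the Flox livers, with no overlap (log2 fold change 0.34, adjusted p = 0.648 in limma). In the same list Mrrf, the ribosome recycling factor of mitochondria, lay below Flox throughout, at 4.93, 4.65 and 4.96 FPKM in the HKO livers, against 5.43, 5.74 and 5.04 FPKM in the Flox livers. So 1 of 13 lay above and 1 of 13 below, against 6.06% and 7.21% of all genes tested. Among 21 aminoacyl-tRNA synthetase and amidotransferase genes 6 were higher and 15 lower (-0.04). HKO lay below Flox throughout in 1 of the 21, against 7.21% of all genes tested. That gene was Gatb, a subunit of the amidotransferase that makes glutaminyl-tRNA in mitochondria, at 8.56, 8.99 and 9.03 FPKM in the HKO livers, against 9.63, 11.8 and 9.94 FPKM in the Flox livers. Lars2, which charges the leucine tRNAs, stood at 12.7, 14.7 and 18.0 FPKM in the HKO livers, against 61.3, 13.5 and 64.0 FPKM in the Flox livers. Flox 1 and Flox 3 stood far above the other 4 libraries in Lars2, and Flox 2 lay among the HKO livers (adjusted p = 0.667 in limma). Of 9 regulators of mitochondrial biogenesis 6 were higher and 3 lower (0.10), among them the coactivator gene Pprc1 at 1.88, 1.57 and 2.04 FPKM in the HKO livers, against 1.09, 0.654 and 2.01 FPKM in the Flox livers.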

How the data were processed

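The authors deposited FPKM for each gene in each single library. The submitters' processing notes name GRCm38 and mm10. No source used here gives an aligner, a counting tool or how reads with several matches were treated. RNA (1.3 µg) entered NEBNext Ultra libraries, per the labels' protocols. Whole reads were recovered from FPKM, gene length and the smallest step of each library (100% of values above 0 whole within 0.02 reads). 1 FPKM in a gene of 1 kb stood for 14.9 to 18.5 reads. The library sizes behind the FPKM matched median-ratio size factors. Genes with at least 0.5 FPKM in 3 of 6 libraries were fitted with limma 3.58.1 (R 4.3.3, statmod 1.5.0; trend, robust) on log2(FPKM + 1), without a block, after the script was tested on simulated data. Group values are means ± SD. Copies were sought with blastn 2.17.0 among GENCODE M21 transcripts, an annotation in which 99.8% of the table's identifiers and all 37 mitochondrial coordinates were found. The members and lists were chosen with earlier results of these data known. Named were all protein and rRNA genes, tRNA genes of the 5 highest means, of the 5 smallest p or with reads in fewer than 3 libraries, up to 3 genes per nuclear list, G3bp1 and copies. mt-Ti was added for its log2 fold change after the values were seen.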

Additional observations from a re-analysis of the deposited data

How the results depend on the processing

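The number of genes called among all genes tested, 1 in the test reported, was 0 with no filter, 2 at a mean of at least 5 FPKM, 3 with voom on recovered reads and 0 with the replicate block. Where the count was 0, genes with an unadjusted p under 0.05 numbered 1199 with no filter and 784 with the block, against 904 in the test reported. The number called ranged from 0 to 13 with 1 library left out, 13 without HKO 1, with 447 to 1812 genes at an unadjusted p under 0.05. Libraries of the same replicate number showed no sign of pairing (correlations of deviations 0.0215, 0.0150 and 0.0704, none over 0.1). With 3 libraries per group that check cannot exclude a pairing, and the block was run only as an alternative. It changed the call of no mitochondrial gene. With 1 library left out the mitochondrial share of reads differed by -0.376 to 0.221 percentage points, the rRNA share by 0.285 to 0.804 and the tRNA share by -0.0492 to 0.0464. Among log2 fold changes near 0, mt-Nd2 turned to 0.16 under TPM, to 0.059 scaled by assigned reads and to 0.057 scaled by reads outside the mitochondrial chromosome, and mt-Co1 to 0.063 under TPM. With 1 library left out mt-Rnr1 ranged from -0.029 to 0.33, mt-Nd1 from -0.056 to 0.14, mt-Nd2 from -0.17 to 0.15, mt-Co1 from -0.19 to 0.0027, mt-Co2 from -0.69 to 0.41, mt-Co3 from -0.65 to 0.26, mt-Nd5 from -0.083 to 0.17, mt-Nd6 from -0.12 to 0.11 and mt-Tc from -0.024 to 0.22. Without HKO 2 the values of mt-Rnr2, mt-Tl1 and mt-Ty were 0.25, 0.40 and 0.66, and without Flox 3 that of mt-Te was 0.37. mt-Tn was 0.0034 without HKO 1 and 0.71 without HKO 3. The cause of these shifts was not tested. The only call of a mitochondrial gene under the settings tried was mt-Tp without HKO 1. Depth limits the tRNA genes with few reads. The split of the protein genes by the copied stretch was chosen after seeing the data, and the bases between annotated copies were not analysed here.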
